A study of Mus musculus with 3 samples.

Results

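The RNA of 10 transcription factor genes that mark or maintain endothelial identity was followed in nuclei of the mouse heart: Sox7, Sox17, Sox18, Nr2f2, Prox1, Erg, Fli1, Ets1, Klf2 and Klf4. The genes were chosen by name, and all 10 were present among the 32285 features of the deposited matrices. The matrices hold single-nucleus counts of unique molecular identifiers (UMIs, each standing for 1 captured RNA molecule) from heart tissue taken 2 weeks after surgery. There were 3 libraries, 1 per group. Sham-NS had sham surgery and NS, MI-NS had a myocardial infarction and NS, and MI-DAPA had an infarction and dapagliflozin, an inhibitor of sodium-glucose cotransport in the kidney. The labels do not expand NS, and strain, age, dose and the number of animals behind each library are not given in the sources used here. With 1 library per group, library and group cannot be told apart, and no difference between groups could be tested.

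Endothelial cells line blood vessels, lymph vessels and the chambers of the heart. The ETS factors Erg, Fli1 and Ets1 bind regulatory DNA of most endothelial genes, and the SOXF factors Sox7, Sox17 and Sox18 act with them, with Sox17 known for its role in arteries. Nr2f2 (COUP-TFII) is known for venous and lymphatic fate, and Prox1 for lymphatic fate. Klf2 and Klf4 are zinc finger factors induced by laminar blood flow. Several of these genes are also used outside the endothelium, Prox1 in heart muscle, Nr2f2 in mural cells, and Fli1 and Ets1 in blood cells.

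All 10 genes are annotated as protein-coding. On GRCm38, which is the same assembly as mm10, the SOXF genes are Sox7 at chr14:63943673-63950732 (plus strand), Sox17 at chr1:4490931-4497354 (minus) and Sox18 at chr2:181669836-181671640 (minus). The ETS genes are Erg at chr16:95359169-95586593 (minus), Fli1 at chr9:32422204-32542861 (minus) and Ets1 at chr9:32636221-32757820 (plus), so that Fli1 and Ets1 are neighbours. Klf2 lies at chr8:72319033-72321656 (plus), Klf4 at chr4:55527143-55532466 (minus), Nr2f2 at chr7:70351944-70366735 (minus) and Prox1 at chr1:190118035-190170714 (minus). B130024G19Rik overlaps Nr2f2 on the other strand. Whether the counting used strand is not stated, so reads of this pair may not be separated, and the values of Nr2f2 are uncertain to that extent.

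Promoter sequences from RefSeq (GRCm38.p6) were matched by symbol for 5 of the 10 genes: Klf2, Klf4, Nr2f2, Prox1 and Erg. The 4 shown are the pair of KLF genes whose levels were most alike across classes, and the pair, Nr2f2 and Prox1, that was higher in both lymphatic-like and endocardial-like nuclei than in capillary-like nuclei. Each line gives the 250 bases before a RefSeq start site, 5′ to 3′ on the strand of the gene. The gene positions above come from another annotation (GENCODE). The Klf2 window runs past the start given there, 72319033, and its marked match lies in that overlap. Capitals mark exact matches on either strand to CACCC, the core of the box bound by KLF factors, to GGAAG, a core bound by ETS factors, and to ACAAT, a core bound by SOX factors. The windows are Klf2 chr8:72318812-72319061 (plus), Klf4 chr4:55532476-55532725 (minus), Nr2f2 chr7:70366747-70366996 (minus) and the farther upstream of both Prox1 starts, chr1:190170828-190171077 (minus).
Klf2: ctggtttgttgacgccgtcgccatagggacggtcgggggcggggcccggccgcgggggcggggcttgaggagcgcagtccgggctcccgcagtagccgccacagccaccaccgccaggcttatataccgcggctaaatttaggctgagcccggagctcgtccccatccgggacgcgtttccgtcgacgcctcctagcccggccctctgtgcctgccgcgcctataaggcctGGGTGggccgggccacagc
Klf4: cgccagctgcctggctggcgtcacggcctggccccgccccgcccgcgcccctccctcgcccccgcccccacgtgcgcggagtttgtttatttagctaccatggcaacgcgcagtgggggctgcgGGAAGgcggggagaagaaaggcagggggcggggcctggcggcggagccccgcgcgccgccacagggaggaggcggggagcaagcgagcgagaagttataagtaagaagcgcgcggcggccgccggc
Nr2f2: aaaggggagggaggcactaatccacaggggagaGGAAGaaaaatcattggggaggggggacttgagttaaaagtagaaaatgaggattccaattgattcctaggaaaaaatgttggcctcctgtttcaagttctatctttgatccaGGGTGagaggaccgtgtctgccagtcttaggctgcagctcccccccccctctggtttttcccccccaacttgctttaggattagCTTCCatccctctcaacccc
Prox1: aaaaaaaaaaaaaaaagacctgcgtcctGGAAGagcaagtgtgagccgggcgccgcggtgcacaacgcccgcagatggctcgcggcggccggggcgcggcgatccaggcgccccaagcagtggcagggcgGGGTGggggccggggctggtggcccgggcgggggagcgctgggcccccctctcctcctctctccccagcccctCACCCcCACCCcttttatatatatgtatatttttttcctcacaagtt

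The Klf2 and Klf4 windows were rich in G and C, with 71.2% and 74.0%, against a median of 52.4% over all 32851 promoters of the RefSeq table cut to the same length. The Prox1 window held 3 KLF boxes, and the Nr2f2 window held 2 ETS cores. None of these 4 windows held the SOX core. These short words are common: CACCC was found in 52.0% of all such windows, GGAAG in 64.1% and ACAAT in 27.7%. A match is a description of the letters and not a binding site.

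In the order Sham-NS, MI-NS, MI-DAPA, the libraries held 13873275, 10113430 and 8871086 UMIs in 9744, 7725 and 6354 barcodes. Of these, 8296, 7065 and 5372 nuclei were kept, with medians of 790, 851 and 831 UMIs. Of the kept barcodes, 27, 25 and 22 also occurred in another library. Clusters were made without the 10 genes and named from markers that include none of them. In the same library order, the capillary-like class held 1597, 851 and 900 nuclei, the arterial-like class 130, 89 and 76, the endocardial-like class 298, 129 and 78, and the lymphatic-like class 78, 96 and 64. All 10 pan-endothelial markers were at least 2-fold above the non-endothelial classes in each of these 4 classes. Against the other endothelial classes, 10 of 10 capillary, 11 of 11 arterial, 8 of 9 endocardial and 8 of 8 lymphatic markers were at least 2-fold higher in the class named for them. These marker sets also served to name the classes, so the counts describe the classes and are not an independent check. The cluster taken as capillary-like scored highest for the pan-endothelial markers (mean log2 fold 3.08), with the capillary markers second (2.73). None of these classes was named venous. Of 9 venous markers, 7 were at least 2-fold above non-endothelial classes in both the capillary-like and the endocardial-like class, so venous nuclei may lie inside these. Against the other endothelial classes, 5 of the 9 were at least 2-fold higher in endocardial-like and 0 in capillary-like nuclei.

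The first question was which factors follow the endothelium as a whole. In nuclei of the 4 endothelial-like classes lay 79.3% of Sox17, 77.5% of Sox7, 77.3% of Erg and 74.9% of Sox18 UMIs found in nuclei of named classes, although these nuclei held 15.5% of the UMIs of all genes. The shares were lower for Fli1 (59.5%), Klf4 (55.6%), Ets1 (53.2%), Klf2 (48.1%) and Nr2f2 (36.9%), and Prox1 was at 16.7%. Capillary-like nuclei were then compared with the mean of cardiomyocyte-like, fibroblast-like, macrophage-like, pericyte-like and smooth muscle-like nuclei, from UMIs summed per library and class in edgeR's quasi-likelihood test with library as a block. The 3 libraries serve here as replicates of the class difference, although each had another treatment. In this test 9 of 10 members were higher and 1, Prox1, was lower, where 20.9% of 10354 genes tested were higher and 18.1% lower. The classes were built from other genes of the same nuclei, so the share of all genes called is a background and not an independent yardstick.

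Sox7, Erg and Sox18 had the largest class differences, with log2 fold changes of 4.35 ± 0.27 (SE; adjusted p = 3.17e-14), 4.34 ± 0.23 (1.38e-15) and 4.05 ± 0.27 (2.17e-13). Sox17 followed with 3.80 ± 0.20 (8.66e-16), Fli1 with 3.46 ± 0.21 (2.48e-14) and Klf4 with 3.00 ± 0.14 (7.53e-17). Ets1 stood at 2.59 ± 0.14 (9.74e-16), Klf2 at 2.30 ± 0.19 (3.16e-11) and Nr2f2 at 0.94 ± 0.19 (0.000162). Prox1 was lower in capillary-like nuclei, with a log2 fold change of -1.50 ± 0.36 (adjusted p = 0.00119). Without Sham-NS this call was lost (-0.90, adjusted p = 0.112), as it was at a higher cluster resolution (-0.76, 0.300) and under a stricter nucleus filter (-0.26, 0.775).

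**Figure D1:**
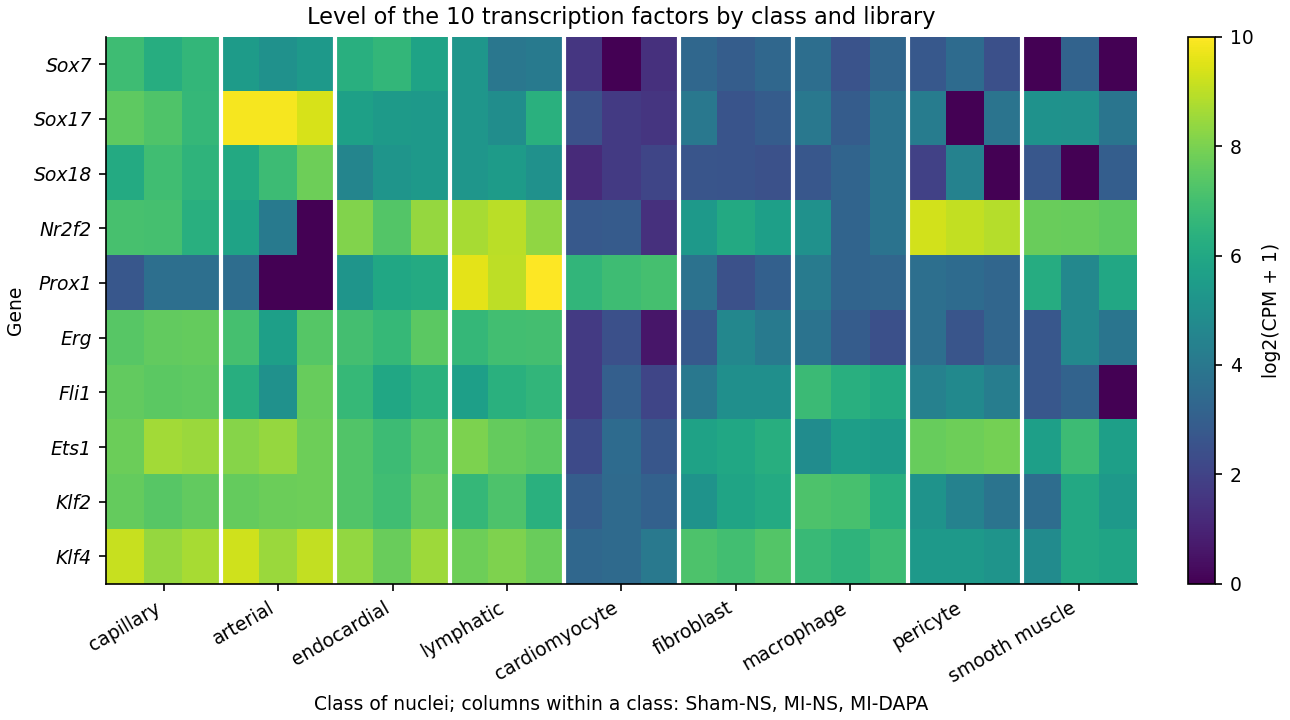
Level of each of the 10 genes (rows) in 9 classes of nuclei, with 1 column per library in the order Sham-NS, MI-NS, MI-DAPA; colour is log2 of CPM (counts per 1000000 UMIs) plus 1. The SOXF and ETS rows are bright in the 4 endothelial-like classes at left, Nr2f2 is brightest in pericyte-like nuclei, and Prox1 in lymphatic-like nuclei, with a second bright block in cardiomyocyte-like nuclei.

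The SOXF factors divided the endothelial classes. Levels are given as counts per 1000000 UMIs of the class (CPM), in the order Sham-NS, MI-NS and MI-DAPA; since 3′ counts are not scaled by length, levels are compared within a gene. Sox17 stood at 925, 934 and 669 CPM in arterial-like nuclei and at 182, 152 and 99.3 CPM in capillary-like nuclei. The arterial-like mean of 842 ± 151 CPM (SD, n = 3) lay above the capillary-like mean of 144 ± 41.9, and the libraries of these classes did not overlap. In the same edgeR model the arterial-like level of Sox17 was higher by 2.54 ± 0.21 on the log2 scale (adjusted p = 6.54e-12). Lymphatic-like nuclei had 37.2, 29.0 and 79.9 CPM and endocardial-like nuclei 50.3, 42.4 and 41.5 CPM, which was lower than capillary-like in both (log2 -1.68 ± 0.38, adjusted p = 0.000897, and -1.64 ± 0.30, adjusted p = 2.97e-05).

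The share of nuclei with a Sox17 UMI pointed the same way. At least 1 Sox17 UMI was present in 43.1% of arterial-like nuclei of Sham-NS (exact Clopper-Pearson interval 34.4 to 52.0), 40.4% of MI-NS (30.2 to 51.4) and 36.8% of MI-DAPA (26.1 to 48.7), at median depths of 623, 601 and 592.5 UMIs. In fibroblast-like nuclei, which should lack it, the share was 1.14%, 0.443% and 0.522% at 700, 764 and 742 UMIs. With every nucleus thinned to 500 UMIs the arterial-like shares were 34.6%, 36.0% and 30.3%, and the fibroblast-like shares 0.908%, 0.246% and 0.298%.

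Sox7 was highest in capillary-like nuclei, at 118, 75.1 and 97.7 CPM, and overlapped there with endocardial-like nuclei at 78.3, 96.8 and 55.3 CPM. Lymphatic-like nuclei, at 37.2, 14.5 and 16.0 CPM from 3, 2 and 1 UMIs, were lower than capillary-like (log2 -2.05 ± 0.51, adjusted p = 0.00214). Arterial-like nuclei had 44.0, 32.8 and 40.5 CPM, below every capillary-like library, but with 4, 2 and 2 UMIs the difference of -1.31 ± 0.48 did not pass (adjusted p = 0.0992). It passed when endothelial classes came from a second clustering (-1.58, adjusted p = 0.0429).

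Sox18, which also acts in lymphatic development, had 69.1, 121 and 89.4 CPM in capillary-like nuclei and 66.1, 115 and 223 CPM in arterial-like nuclei, and these ranges overlapped. It was lower in endocardial-like nuclei, at 22.4, 36.3 and 41.5 CPM (log2 -1.43 ± 0.38, adjusted p = 0.00345). In lymphatic-like nuclei it stood at 37.2, 43.5 and 32.0 CPM (-1.21 ± 0.45, adjusted p = 0.0484). The lymphatic-like call was lost without Sham-NS (adjusted p = 0.0647) and without MI-DAPA (0.0841). Without MI-NS neither Sox18 nor Sox7 passed the count filter, so neither was tested.

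**Figure D2:**
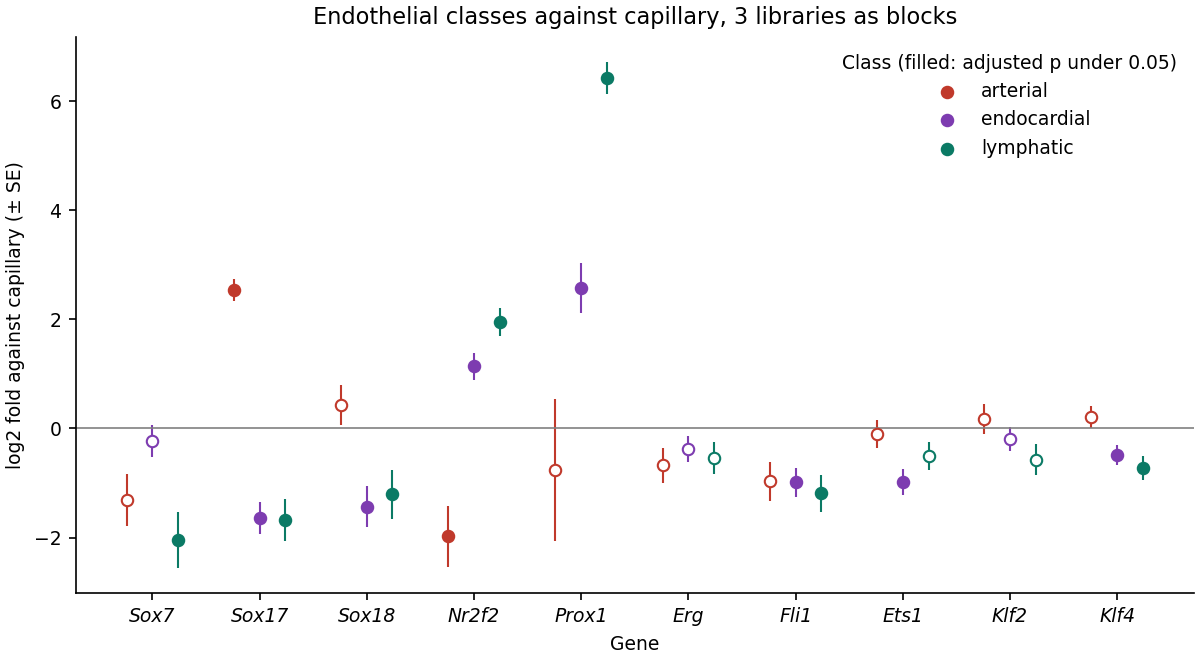
log2 fold change of each gene in arterial-like, endocardial-like and lymphatic-like nuclei against capillary-like nuclei (edgeR, 3 libraries as blocks; bars are ± 1 SE; filled points have an adjusted p under 0.05). Sox17 stands apart in arterial-like nuclei at 2.54 and Prox1 in lymphatic-like nuclei at 6.43, while all but Nr2f2 and Prox1 lie at or below 0 in endocardial-like and lymphatic-like nuclei.

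Nr2f2 and Prox1, the venous and lymphatic factors, were the 2 members higher in both endocardial-like and lymphatic-like nuclei than in capillary-like nuclei. Prox1 stood at 769, 508 and 1087 CPM in lymphatic-like nuclei and at 5.61, 11.4 and 11.6 CPM in capillary-like nuclei, from 6, 7 and 7 UMIs. The difference was 6.43 ± 0.29 on the log2 scale (adjusted p = 5.34e-20). A Prox1 UMI was found in 50% (38.5 to 61.5), 36.5% (26.9 to 46.9) and 51.6% (38.7 to 64.2) of lymphatic-like nuclei, at median depths of 843.5, 1139 and 909.5 UMIs. The share in fibroblast-like nuclei was 0.795%, 0.394% and 0.597%. After thinning to 500 UMIs the lymphatic-like shares were 38.5%, 16.7% and 31.3%.

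Endocardial-like nuclei, which line the heart chambers, held Prox1 at 36.4, 60.5 and 69.1 CPM, above capillary-like nuclei in all 3 libraries (log2 2.58 ± 0.45, adjusted p = 2.13e-05). These levels rest on 13, 10 and 5 UMIs in 6, 6 and 3 nuclei, and summed lymphatic markers stood at 120, 103 and 82.9 CPM in endocardial-like and at 99.97, 145 and 119 CPM in capillary-like nuclei. Under the stricter nucleus filter the call was lost (1.46, adjusted p = 0.142). In arterial-like nuclei Prox1 had 1, 0 and 0 UMIs, where 3 counts would be 49.2 CPM in MI-NS and 60.8 CPM in MI-DAPA.

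Outside the endothelium Prox1 was at 96.1 (86.7 to 106), 117 (103 to 132) and 130 (118 to 142) CPM in cardiomyocyte-like nuclei, with 383, 260 and 481 UMIs. Smooth muscle-like nuclei had 71.4, 24.4 and 62.7 CPM, and fibroblast-like, macrophage-like and pericyte-like nuclei had at most 16.9 CPM. Smooth muscle-like nuclei also held the cardiomyocyte marker Ttn at 55570, 21049 and 81078 CPM, against 2503, 960 and 1624 CPM in pericyte-like nuclei. The part of cardiomyocyte RNA in their Prox1 level was not tested. In order of mean level, lymphatic-like nuclei at 788 ± 289.9 CPM (SD, n = 3) came first without overlap, and cardiomyocyte-like nuclei at 114 ± 17.0 CPM second, overlapping T cell-like nuclei at 74.7 ± 87.9 CPM, where Prox1 had 2, 1 and 5 UMIs. The ranges of endocardial-like (55.3 ± 17.0) and smooth muscle-like nuclei (52.8 ± 25.0) overlapped each other.

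Nr2f2 was highest in pericyte-like nuclei, the mural cells around capillaries, at 644, 539.5 and 472 CPM. Lymphatic-like nuclei followed with 409, 494 and 319.7 CPM, then endocardial-like nuclei with 271, 157 and 346 CPM and smooth muscle-like nuclei with 209, 203 and 181 CPM, and each of these ranges overlapped the next. Capillary-like nuclei, at 135, 132 and 77.8 CPM, lay below all of them. Against capillary-like nuclei, Nr2f2 was higher in lymphatic-like (log2 1.95 ± 0.25, adjusted p = 1.45e-07) and endocardial-like nuclei (1.14 ± 0.25, adjusted p = 0.000374). With class read from marker levels alone the endocardial-like difference was 0.58 and did not pass (adjusted p = 0.0703). Summed venous markers stood at 4822, 2850 and 3359 CPM in endocardial-like and at 976, 1032 and 997 CPM in capillary-like nuclei. The part of venous nuclei in the endocardial-like difference was not tested.

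Arterial-like nuclei were at the other end for Nr2f2, with 55.0, 16.4 and 0 CPM from 5, 1 and 0 UMIs. In MI-DAPA a count of 0 allows up to 60.8 CPM, taken as 3 counts. The difference from capillary-like nuclei was -1.98 ± 0.56 (adjusted p = 0.0189). It was lost without MI-NS (adjusted p = 0.0868) and without MI-DAPA (0.0621), and with class read from marker levels it was 0.08.

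**Figure D3:**
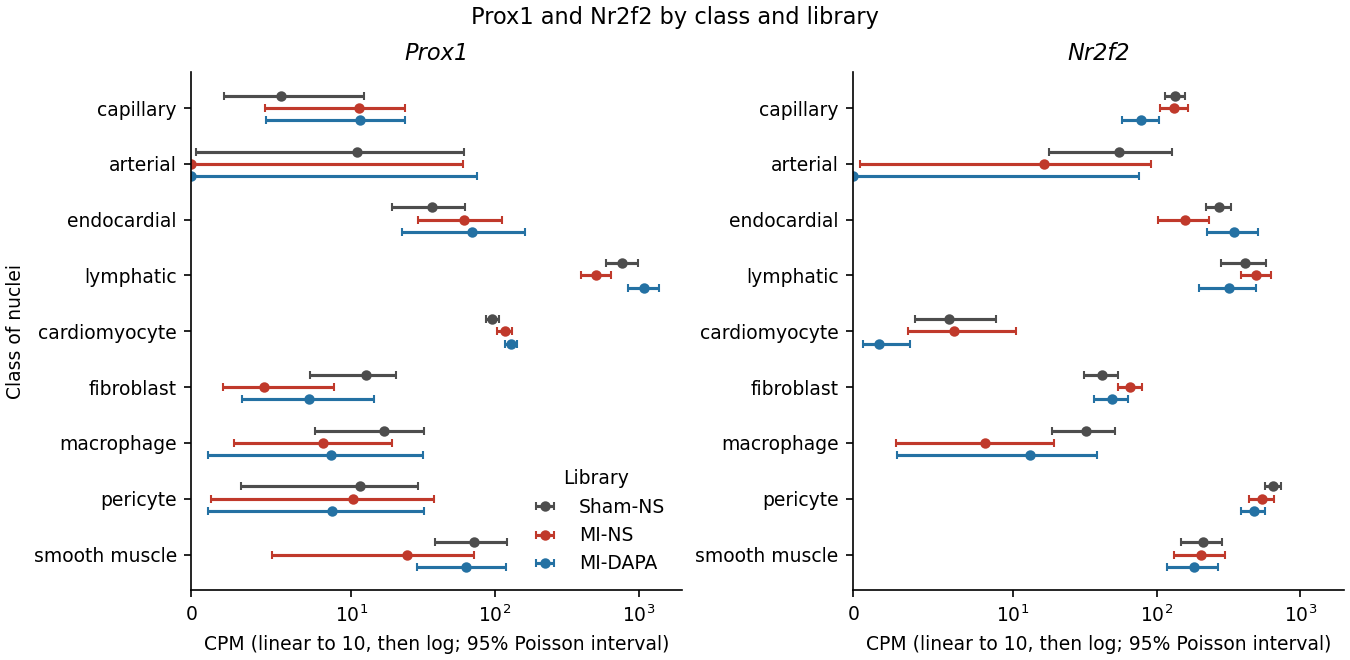
Prox1 (left) and Nr2f2 (right) in 9 classes; points are CPM in each library with the exact 95% Poisson interval, on an axis that is linear to 10 and logarithmic above. Prox1 is at 508 to 1087 in lymphatic-like nuclei and at 96.1 to 130 in cardiomyocyte-like nuclei, and Nr2f2 is highest in pericyte-like nuclei at 472 to 644.

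The ETS factors were found in all 4 endothelial-like classes. Erg stood at 166, 193 and 195 CPM in capillary-like nuclei, 129, 103 and 179.7 CPM in endocardial-like, 99.2, 123 and 128 CPM in lymphatic-like and 132, 49.2 and 162 CPM in arterial-like nuclei. None of its 3 differences from capillary-like nuclei passed: -0.38 ± 0.23 (endocardial-like, adjusted p = 0.270), -0.54 ± 0.29 (lymphatic-like, 0.202) and -0.68 ± 0.32 (arterial-like, 0.269). With class read from marker levels, Erg was lower in endocardial-like (-1.30, adjusted p = 5.82e-05) and lymphatic-like nuclei (-1.26, 0.000129). Every endothelial-like library lay above the fibroblast-like nuclei, whose Erg levels were 6.01, 23.7 and 16.5 CPM.

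Fli1, which is also used in blood cells, had 192, 179.5 and 184 CPM in capillary-like nuclei, a narrow range. Macrophage-like nuclei held 111, 77.4 and 65.7 CPM, overlapping endocardial-like nuclei at 103, 60.5 and 82.9 CPM and lymphatic-like nuclei at 49.6, 79.8 and 95.9 CPM. Both endocardial-like (log2 -0.99 ± 0.27, adjusted p = 0.00458) and lymphatic-like nuclei (-1.19 ± 0.34, 0.00866) were lower than capillary-like nuclei. The lymphatic-like call was lost without Sham-NS (adjusted p = 0.0852), and with DESeq2 neither passed (0.0512 and 0.0520). In arterial-like nuclei the difference of -0.97 ± 0.36 did not pass (adjusted p = 0.103), but passed without MI-DAPA (-1.68, 0.0326).

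Ets1, which lymphocytes also use, was found in several other classes. Capillary-like nuclei had 213, 393 and 361 CPM, and T cell-like (334, 278 and 315 CPM), arterial-like (286, 344 and 223 CPM) and pericyte-like nuclei (206, 223 and 243 CPM) overlapped them. Endocardial-like nuclei were lower, at 154, 115 and 166 CPM (log2 -0.98 ± 0.23, adjusted p = 0.00106), and this call was lost without MI-NS (-0.65, adjusted p = 0.0567). The lymphatic-like difference of -0.51 ± 0.25 did not pass (adjusted p = 0.169), but passed without Sham-NS (-0.94, 0.0106).

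The flow-responsive factors Klf2 and Klf4 were found in all 4 endothelial-like classes. Klf2 stood at 198, 213 and 223 CPM in arterial-like, 196, 168 and 190.4 CPM in capillary-like, 157, 121 and 193 CPM in endocardial-like and 99.2, 145 and 79.9 CPM in lymphatic-like nuclei. Arterial-like libraries all lay above the capillary-like ones, yet the difference of 0.17 ± 0.27 did not pass (adjusted p = 0.845), nor did those of endocardial-like (-0.20 ± 0.22, 0.590) and lymphatic-like nuclei (-0.58 ± 0.28, 0.159). With class read from marker levels the endocardial-like difference was -1.24 and passed (adjusted p = 5.01e-05). Macrophage-like nuclei held Klf2 at 147, 137 and 78.9 CPM, overlapping the endocardial-like and lymphatic-like ranges.

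Klf4 stood at 627, 361 and 547 CPM in arterial-like nuclei, which overlapped capillary-like nuclei at 575, 338 and 409 CPM (difference 0.21 ± 0.20, adjusted p = 0.683). With class read from marker levels the arterial-like difference was -0.59 and passed (adjusted p = 0.0170). Endocardial-like nuclei had 336, 212 and 373 CPM (-0.49 ± 0.18, adjusted p = 0.0401), and lymphatic-like nuclei 223, 269 and 208 CPM (-0.73 ± 0.21, 0.0107). The endocardial-like call was lost without Sham-NS (adjusted p = 0.415) and without MI-NS (0.0888), and the lymphatic-like call without Sham-NS (0.259) and without MI-DAPA (0.0513). Fibroblast-like nuclei held 149, 124 and 161 CPM of Klf4.

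In counts, 1 of 10 members was higher and 1 lower in arterial-like than in capillary-like nuclei, where 4.08% and 3.46% of 3234 genes were called. In endocardial-like nuclei 2 were higher and 5 lower (12.5% and 12.8% of genes), and in lymphatic-like nuclei 2 were higher and 5 lower (10.4% and 11.5%). The median log2 difference of the members was -0.39, -0.44 and -0.65 in these classes, against -0.02, 0.02 and 0.01 over all genes tested. These tests share the capillary-like sums, so the directions are not independent of one another.

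Other regulators of the same families gave a frame for these values. Among 15 other ETS factors, 5 were tested between endothelial classes, and Ets2 was lower in arterial-like (log2 -1.83), endocardial-like (-2.16) and lymphatic-like nuclei (-1.33; adjusted p = 0.000143, 2.15e-08 and 0.000294 in edgeR); 0, 0 and 1 of the 5 were higher and 1, 4 and 1 lower. Of 2 tested SOX factors Sox13 was higher in arterial-like nuclei (1.42, adjusted p = 0.000114) and lower in endocardial-like (-0.89, 0.0158) and lymphatic-like nuclei (-1.55, 0.00305). Of 6 tested KLF factors none passed in arterial-like or lymphatic-like nuclei (edgeR), and 1, Klf7, was lower in endocardial-like nuclei (-0.59, adjusted p = 0.0472). Of 21 other endothelial regulators 4 were higher and 2 lower in arterial-like nuclei, with Mecom at 1.98 and Epas1 at 1.28. In endocardial-like nuclei 4 were higher, among them Gata6 (3.22) and Foxc1 (3.10), and 6 lower. In lymphatic-like nuclei 2 were higher, Lmo2 (1.23) and Foxp1 (0.79), and 8 lower, with Mecom at -3.07.

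Genes described as targets of these factors were counted in the same way. Of 9 tested flow and KLF target genes 3 were higher in arterial-like nuclei, led by Edn1, which encodes the vasoconstrictor endothelin 1 (log2 3.68). In endocardial-like nuclei 3 were higher, again with Edn1 (3.16), and 3 lower, and in lymphatic-like nuclei none was higher and 4 were lower, among them Nos3, the endothelial nitric oxide synthase (-1.37, edgeR adjusted p = 1.02e-05). Of 19 tested ETS and SOXF target genes 4, 3 and 2 were higher and 1, 9 and 10 lower in arterial-like, endocardial-like and lymphatic-like nuclei. In arterial-like nuclei Vegfc (2.20) and Notch1 (0.95) were higher and Nrp2 (-3.32) lower. In lymphatic-like nuclei Stab1, a scavenger receptor, was higher (2.23), and Notch4 (-2.60) and Nrp1 (-1.91) lower. Against non-endothelial classes, 21 of 21 tested ETS and SOXF target genes were higher in capillary-like nuclei, as were 8 of 15 flow and KLF target genes (2 lower), 6 of 14 other ETS (2 lower), 7 of 9 other KLF (1 lower), 2 of 5 other SOX factors (2 lower) and 21 of 34 other endothelial regulators (6 lower). Several of these genes were described as endothelial before, so the first count is not independent of the class.

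For each member the 3 genes with the most similar level were found over 27 points, which are 9 classes in 3 libraries, among 9974 genes. These correlations share libraries and class depth and are descriptions only. Klf2 and Klf4 were near neighbours, with Pearson r = 0.93, Klf4 being first for Klf2 and Klf2 second for Klf4 after Cpne8 (0.94). Erg was closest to Fgd5, Rasip1 and Egfl7 (0.95 each), of which Egfl7 was a marker used to name classes. Sox17 was closest to Btnl9 (0.92, a capillary marker), Zfp366 and Gata2 (0.90 each). For Sox7 they were Tnfsf10 (0.91), Shroom4 (0.90) and Sgk1 (0.89), and for Sox18 6430562O15Rik (0.91), Cables2 and Efnb2 (0.88 each). Fli1 was closest to Fam43a (0.91), Cenpj (0.90) and Cracr2b (0.89), and Ets1 to Pwwp3a (0.96), Tnfaip1 (0.95) and Gng11 (0.94). Nr2f2 was closest to Chst1 (0.92), Matr3 and its overlapping neighbour B130024G19Rik (0.87 each), and Prox1 to Dip2c (0.81), Wipf3 (0.80) and Sned1 (0.78).

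The second question was how the members differed between the groups, which can be described but not tested. In capillary-like nuclei 9 of 10 members reached 20 UMIs when both libraries compared were added, and Prox1, with 6 or 7 per library, did not. None of the 9 differed at least 2-fold in either direction in MI-NS against Sham-NS, where 10.1% of 8812 measurable genes were at least 2-fold higher and 3.63% lower. None did so in MI-DAPA against MI-NS either, where 1.69% of 8010 genes were higher and 7.18% lower. With mixed clusters kept, and in thinned nuclei, a member passed 2-fold higher in MI-NS against Sham-NS. Under the stricter nucleus filter Nr2f2 passed 2-fold lower in MI-DAPA against MI-NS. The median log2 ratio of the 9 was -0.09 in the former contrast and 0.02 in the latter, against 0.15 and -0.08 over all measurable genes. With TMM scaling, which sets the reference by the bulk of genes, a shift of 0.21 is taken off every ratio of the former contrast in capillary-like nuclei and one of -0.12 off every ratio of the latter.

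**Figure D4:**
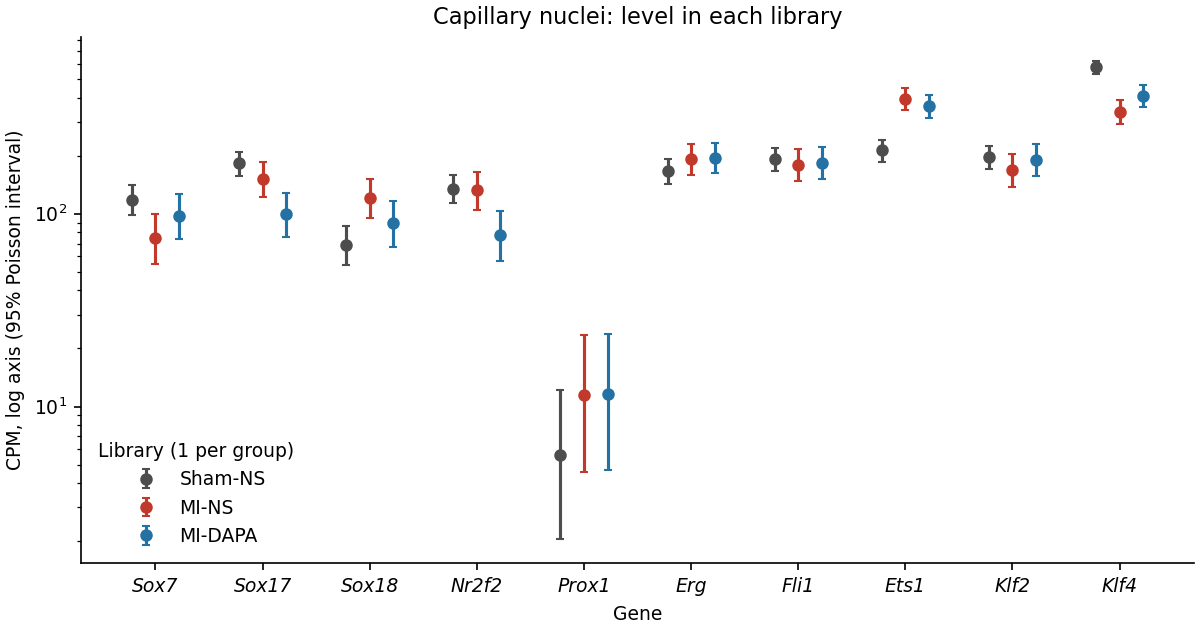
Level of the 10 genes in capillary-like nuclei of each library, in CPM on a log axis, with exact 95% Poisson intervals that cover counting error only. Ets1 is lowest and Klf4 highest in Sham-NS, Erg and Fli1 lie close together in the 3 libraries, and Prox1 rests on 6 to 7 UMIs per library.

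Ets1, Sox18, Klf4 and Sox7 had intervals that excluded 0 in MI-NS against Sham-NS. Ets1 stood at 213 (186 to 243), 393 (345 to 446) and 361 (315 to 412) CPM, from 228, 241 and 218 UMIs. Its log2 ratio in this contrast was 0.88 (95% interval 0.62 to 1.15, counting error only), or 0.67 with TMM scaling, and both infarct libraries lay close together, with -0.12 (-0.40 to 0.15) between them. Sox18 was likewise lowest in Sham-NS, with a ratio of 0.80 (0.32 to 1.29), or 0.59 with TMM scaling.

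Klf4 stood at 575 (530 to 622), 338 (293 to 387) and 409 (360 to 463) CPM, highest in Sham-NS. Its log2 ratio was -0.76 (-1.0 to -0.54) in MI-NS against Sham-NS, or -0.98 with TMM scaling, and 0.27 (0.00 to 0.55) in MI-DAPA against MI-NS, the latter turning to -0.03 under the stricter nucleus filter. The same order was seen in arterial-like nuclei, with -0.78 (-1.58 to -0.07) and then 0.59 (-0.27 to 1.48). In endocardial-like nuclei, with -0.65 (-1.25 to -0.11) and then 0.82 (0.04 to 1.58), Klf4 was also lowest in MI-NS but highest in MI-DAPA. Lymphatic-like nuclei had 0.25 (-0.58 to 1.17) and -0.34 (-1.41 to 0.58), intervals wide enough to hold either sign. Klf2, its relative, had capillary-like ratios of -0.22 (-0.58 to 0.12) and 0.18 (-0.22 to 0.58).

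Sox7 stood at -0.64 (-1.17 to -0.15) in MI-NS against Sham-NS, or -0.85 with TMM scaling. In MI-DAPA against MI-NS the intervals that excluded 0 on the lower side were those of Nr2f2, with -0.76 (-1.32 to -0.23), and Sox17, with -0.61 (-1.10 to -0.13). With class read from marker levels these were -0.32 and -0.31, and Sox17 was at -0.27 with mixed clusters kept. Under the stricter nucleus filter Nr2f2 was at -1.28 in this contrast and at 0.91 in MI-NS against Sham-NS, against -0.02 in the main grouping. The pan-endothelial factors Erg and Fli1 had ratios of 0.21 (-0.14 to 0.56) and -0.09 (-0.44 to 0.25), then 0.02 (-0.36 to 0.40) and 0.03 (-0.36 to 0.43). The sign of the Erg ratio in MI-NS against Sham-NS turned under the stricter filter (-0.13) and with mixed clusters kept (-0.07).

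In the smaller endothelial classes fewer or as many members could be measured: 4 in arterial-like, 9 in endocardial-like and 6 in lymphatic-like nuclei for MI-NS against Sham-NS, of which none differed at least 2-fold. The background there was 5.51%, 9.61% and 8.98% of genes higher and 8.35%, 6.26% and 7.5% lower. For MI-DAPA against MI-NS 4, 6 and 6 members were measurable, and 1 in endocardial-like and 1 in lymphatic-like nuclei were at least 2-fold higher, where 6.26% and 6.22% of genes were. In arterial-like nuclei 0 of 4 were (6.88%). None was at least 2-fold lower, where 3.67%, 9.41% and 7.96% of genes were. The 2 were Nr2f2 in endocardial-like and Prox1 in lymphatic-like nuclei.

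Prox1 in lymphatic-like nuclei stood at 769 (589 to 985), 508 (396 to 642) and 1087 (844 to 1378) CPM. The log2 ratios were -0.60 (-1.11 to -0.08) and 1.10 (0.59 to 1.60), and the latter ranged from 0.75 in nuclei thinned to 500 UMIs to 1.59 under the stricter filter. Nr2f2 in endocardial-like nuclei was at -0.77 (-1.47 to -0.15) and then at 1.14 (0.28 to 1.98). Sox17 in arterial-like nuclei, at 0.02 (-0.50 to 0.52) and -0.47 (-1.15 to 0.16), had intervals that held 0 in both contrasts.

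Markers of other cell types moved with these contrasts. The summed level of fibroblast markers was 1165, 3622 and 1087 CPM in lymphatic-like nuclei, 1329, 4011 and 1092 CPM in endocardial-like nuclei and 446, 1480 and 371 CPM in capillary-like nuclei, so that it was highest in MI-NS, where Prox1 in lymphatic-like, Nr2f2 in endocardial-like and Klf4 in capillary-like nuclei were lowest. Some other members were highest in MI-NS: Ets1 (393 CPM) and Sox18 (121) in capillary-like, Sox7 (96.8) in endocardial-like and Nr2f2 (494) in lymphatic-like nuclei. None of the fibroblast markers was at 0 in capillary-like nuclei, and at most 2 were in lymphatic-like nuclei. The summed lymphatic markers in lymphatic-like nuclei were 4637, 3397 and 4284 CPM, also lowest in MI-NS. Summed cardiomyocyte markers in capillary-like nuclei were 8048, 3929 and 7122 CPM, and the median mitochondrial share was 4.46%, 2.09% and 3.48%. Summed venous markers in endocardial-like nuclei were 4822, 2850 and 3359 CPM, and the endocardial marker Npr3 stood at 635, 363 and 567 CPM, both lowest in MI-NS like Nr2f2 there. The part of these differences in the members' ratios was not tested.

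Other genes of the flow and stress response were read in capillary-like nuclei beside Klf2 and Klf4. Of 14 measurable flow and KLF target genes 5 were at least 2-fold above Sham-NS in MI-NS and none lower, with a median log2 ratio of 0.97; Ccn2, a matricellular gene, was at 2.93, and S1pr1 (-0.61) and Thbd (-0.34) were lowest. In MI-DAPA against MI-NS 4 of 14 were at least 2-fold lower, among them Ccn2 at -2.61. Ccn2 is also expressed by fibroblasts, whose summed markers were highest in MI-NS too, and their part in this ratio was not tested. Of 12 immediate early genes, which are switched on within minutes of handling or stress, 8 were at least 2-fold higher in MI-NS against Sham-NS (median 1.28; Nr4a1 3.66), and 4 were at least 2-fold lower in MI-DAPA against MI-NS (median -0.51).

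Circadian clock genes differed too: Per2 stood at 534 CPM in Sham-NS and 14.7 CPM in MI-NS (log2 -5.11), Arntl at 2.80 and 76.7 CPM (4.57), and 7 of 12 measurable clock genes were at least 2-fold lower and 1 higher. Between both infarct libraries none of 9 clock genes differed at least 2-fold. The labels give no hour of collection, so time of day and surgery cannot be told apart in the Sham-NS contrast. Of the haemoglobin genes, a sign of blood RNA, 0 of 3 differed at least 2-fold in MI-NS against Sham-NS and 1 of 2 was lower in MI-DAPA against MI-NS (Hbb-bs, -1.45). In endocardial-like nuclei 2 of 2 were at least 2-fold lower in MI-NS against Sham-NS, with a median log2 ratio of -1.83.

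Among the other lists in capillary-like nuclei, 2 of 10 measurable ETS factors, Etv6 (1.37) and Elk3 (1.15), were at least 2-fold higher in MI-NS against Sham-NS, 0 of 8 KLF and 0 of 2 SOX factors differed that much, and 5 of 29 other endothelial regulators were higher and 1 lower. Bcl6b, an endothelial repressor, was at 1.36 and Gata6 at 1.33, and Tbx3 at -1.32. Of 22 ETS and SOXF target genes 4 were higher and none lower, with Cldn5, a tight junction gene, at 2.24 and Apln at 2.06, and Eng at -0.71. In MI-DAPA against MI-NS 0 of 9 ETS, 0 of 8 KLF and 0 of 2 SOX factors differed at least 2-fold, 1 of 29 regulators was lower (Gata6, -1.34), and 1 of 22 ETS and SOXF targets was lower (Cldn5, -1.08). These contrasts share the MI-NS library, so opposite signs in them are not independent.

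Outside the endothelium, Prox1 in cardiomyocyte-like nuclei was at 0.28 (0.05 to 0.51) in MI-NS against Sham-NS, but at 0.04 with TMM scaling and 0.06 in thinned nuclei. In fibroblast-like nuclei Erg had 8, 42 and 18 UMIs, at levels of 6.01, 23.7 and 16.5 CPM, and Sox17 had 20, 9 and 7 UMIs, the level given above as background. Ratios of the other members outside the endothelium are not counted here, since many rest on few UMIs.

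Within the capillary-like class, a second clustering, again made without the 10 genes, split nuclei largely by library, so its groups are described within Sham-NS, the library with the most capillary-like nuclei. A group led by Vwf, Amigo2 and Col13a1, with 394 Sham-NS nuclei, had Nr2f2 at 339 (273 to 416) CPM, while a group led by Gpr160 and Adh1, with 575 nuclei, had 59.6 (36.9 to 91.1) CPM. Vwf is a gene of veins and of larger vessels. In MI-NS and MI-DAPA the Vwf-led group held 31 and 119 nuclei, with Nr2f2 at 379 (164 to 747) and 278 (176 to 417) CPM, close to Sham-NS. Klf4 was also higher in the Vwf-led group of Sham-NS, at 848 (742 to 964) CPM against 463 (394 to 539), and Sox17 was lower, at 129 (89.8 to 179) against 229.9 (183 to 286) CPM. Erg was at 177 (130 to 235) and 148 (110 to 194) CPM, with overlapping intervals. Nr2f2 was itself among the genes that lead this group, so its level there is a description. With 2 venous markers 2-fold up, the Vwf-led group stayed unnamed.

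The capillary-like ratios between libraries therefore compare nuclei that fell largely into different groups of this clustering. All libraries were clustered together, with no step to align them. Whether the split reflects different kinds of nuclei or a shift of expression between libraries was not tested. A group with 4 venous markers 2-fold up, among its leading genes Plvap and Selp, held 497 MI-NS nuclei of 851, 14 Sham-NS nuclei of 1597 and 79 MI-DAPA nuclei of 900. The rule of at least 3 markers 2-fold up named it venous. That name is not used here, since the group was led by Col1a1 and Sfrp2, genes of fibroblasts. In MI-NS it had Nr2f2 at 155 (117 to 202) CPM, Klf4 at 377 (317 to 446) and Ets1 at 402 (339.5 to 473). The Gpr160-led group, with 575 nuclei in Sham-NS, held 11 in MI-NS and 87 in MI-DAPA. A group found in all libraries, led by Prnd and Ift122, held 105, 207 and 357 nuclei. The cycling markers Mki67 and Top2a were also among its leading genes. This Prnd-led group had Klf4 at 239.9, 139 and 182 CPM and Ets1 at 119.9, 365 and 303 CPM. In the Vwf-led group Klf4 stood at 848, 616 and 881 CPM and Ets1 at 206, 379 and 314 CPM. Ets1 was lowest in Sham-NS in both groups, with Poisson intervals of Sham-NS and MI-NS that overlapped in the Vwf-led group (156 to 268 and 164 to 747) and not in the Prnd-led group (54.8 to 228 and 275 to 475). Klf4 was lowest in MI-NS in both, with overlapping intervals (742 to 964 and 328 to 1054 in the Vwf-led group, 142 to 379 and 86.3 to 213 in the Prnd-led group). In a group led by Slc1a1 and P3h4, Klf4 was also lowest in MI-NS, at 390, 231 and 490 CPM. Ets1 there was at 149, 661 and 437 CPM. A group led by Oasl1 and Ifit1 had another Klf4 order, at 577, 584 and 103 CPM, the last from 4 UMIs. Its Ets1 levels were 202, 292 and 539 CPM, again lowest in Sham-NS.

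**Figure D5:**
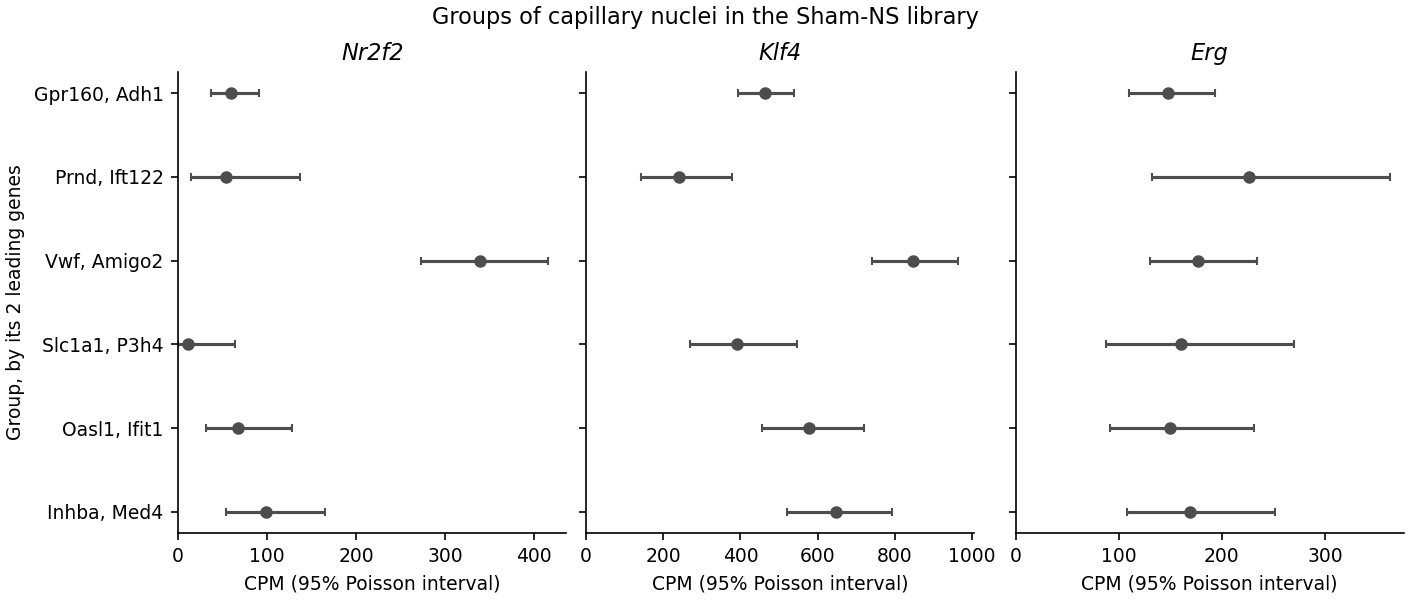
Nr2f2, Klf4 and Erg in 6 groups of capillary-like nuclei of the Sham-NS library, in CPM with exact 95% Poisson intervals; groups are labelled by their 2 leading genes. Nr2f2 and Klf4 are highest in the group led by Vwf and Amigo2, at 339 and 848, while the intervals of Erg overlap in all 6 groups.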

How the data were processed

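Single-nucleus RNA libraries (10x 3′ chemistry) of mouse heart were analysed, 1 for each of 3 groups. The authors deposited UMI counts per gene and barcode, made with Cell Ranger 6.0.1 per the file headers; the submitters' processing notes name mm10 and Seurat, with no role stated, and the use of intronic reads is not given in the sources used here. Every barcode had at least 500 UMIs. Nuclei with at least 300 genes and at most 10% mitochondrial UMIs were kept. Scrublet (scanpy 1.11.5) called 0, 1 and 2 doublets, too few to rely on, so clusters with a median score above 0.1 were left out as mixed after the scores had been seen (15.5%, 11.2% and 10.3% of nuclei). Leiden clusters (leidenalg 0.10.2, resolution 1.0, 30 components, 15 neighbours) were made without the 10 genes and named, as "-like", from 22 marker sets where at least 3 markers were 2-fold up.

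Levels (CPM) are a gene's summed UMIs over all UMIs of that class and library. Class differences were tested with edgeR 4.0.16 (TMM, quasi-likelihood, library as block, Benjamini-Hochberg over all genes tested; called under 0.05), with DESeq2 1.42.0 as an alternative. Group contrasts are log2 ratios of CPM with 0.5 UMI added and exact conditional binomial intervals; levels have exact Poisson and shares Clopper-Pearson intervals, at 95%. All cover counting error only. Genes were measurable with 20 UMIs over both libraries. The tests and intervals were tested on simulated data. The members, the lists (other ETS, KLF and SOX factors, other endothelial regulators, flow and KLF targets, ETS and SOXF targets, immediate early, clock, haemoglobin) and the rules were chosen with earlier results of these data known. All members are named; of each list, the 2 highest and 2 lowest ratios and the 2 smallest adjusted p per direction could be named, and the 3 genes most like each member; other groups of capillary-like nuclei are described by leading genes. Alternatives were other clusterings, marker-level classes, a stricter filter (500 genes, 5% mitochondrial), mixed clusters kept, thinning to 500 UMIs, TMM factors and leaving out each library.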

Additional observations from a re-analysis of the deposited data

Results flagged for a closer look

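For 3 members the ratio between the same libraries lay on opposite sides of 0 in different classes, each with a counting interval that excluded 0. The share of all genes that meet this rule was not counted, so the count is not read as a trait of the members. The differences between classes were not tested, since each group has 1 library. In MI-NS against Sham-NS the log2 ratio of Nr2f2 was 0.66 in fibroblast-like nuclei, but -0.77 in endocardial-like and -1.86 in macrophage-like nuclei, where it rests on 5 and 17 UMIs. In the same contrast Prox1 was at 0.28 in cardiomyocyte-like nuclei, at -0.60 in lymphatic-like nuclei and at -1.45 in fibroblast-like nuclei, the last from 8 and 17 UMIs. In MI-DAPA against MI-NS Nr2f2 was at 1.14 in endocardial-like nuclei, at -0.76 in capillary-like nuclei and at -1.89 in cardiomyocyte-like nuclei, the last from 6 and 14 UMIs. In that contrast Ets1 was at 0.98 in cycling nuclei and at -0.93 in cardiomyocyte-like nuclei.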

How the results depend on the processing

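Of 456 values for the 40 class differences of members under alternatives, 408 kept their direction and side of the threshold, 34 no longer passed, 12 newly passed and 2 reversed: Nr2f2 (0.081) and Klf4 (-0.59) in arterial-like against capillary-like nuclei with class read from marker levels. Of 450 ratios between groups in endothelial-like classes 13 moved beyond their counting interval and 43 had another sign, each of a ratio whose main size was at most 0.72 on the log2 scale. Lower counts below include genes that a setting did not test: Sox18 under the stricter filter, and Sox7 and Sox18 with mixed clusters kept and without MI-NS. The cause of the other changes was not tested. Percentages in brackets are the share of all genes tested in that setting that were called in the same direction. Members lower in arterial-like nuclei were 3 by marker level (4.4%) and 2 with a second clustering, chosen after seeing the data (2.5%). They were 2 with no filter on low counts (1.41%), 0 with DESeq2 (1.64%), and 0 to 1 leaving out a library (1.25% to 2.98%). In endocardial-like nuclei 1 was higher by marker level (13.1%) and 1 under the stricter filter (9.39%). Lower there were 8 by marker level (12.3%), 3 under the stricter filter (9.68%) and 2 with mixed clusters kept (9.19%). DESeq2 gave 3 lower (8.57%), and leaving out a library 2 to 5 (8.75% to 12.9%). In lymphatic-like nuclei 3 were lower under the stricter filter (9.03%), 1 with mixed clusters kept (8.54%) and 2 with DESeq2 (8.69%). Leaving out any library gave 3 (7.23% to 12.3%). Against non-endothelial classes 0 were lower at the higher resolution (14.9%) and 0 under the stricter filter (15.5%). Leaving out a library gave 0 to 1 (11.3% to 16.3%). Without the replicate block for library, 0 members were lower in arterial-like (1.21%) and 3 in lymphatic-like nuclei (7.88%). In capillary-like nuclei 1 member was at least 2-fold higher in MI-NS against Sham-NS with mixed clusters kept and 1 in thinned nuclei. Under the stricter filter 1, Nr2f2, was at least 2-fold lower in MI-DAPA against MI-NS. The share of all genes that differed this much under these settings was not counted. Over all genes, 132 (4.08% of 3234 tested) were higher and 112 (3.46%) lower in arterial-like against capillary-like nuclei. By marker level these were 298 (5.51% of 5406) and 238 (4.4%), and without the block 76 (2.35%) and 39 (1.21%). Lower genes were 53 (1.64%) with DESeq2 and 250 (1.41% of 17668) with no filter. They were 74 (2.98%) without MI-NS and 55 (1.25%) without MI-DAPA. In endocardial-like nuclei 403 (12.5%) and 415 (12.8%) became 709 (13.1%) and 664 (12.3%) by marker level. Higher genes were 266 (8.29%) with mixed clusters kept, and lower genes 721 (4.08%) with no filter and 244 (7.54%) without the block. In lymphatic-like nuclei 336 (10.4%) and 372 (11.5%) became 575 (10.6%) and 564 (10.4%) by marker level. Higher genes were 219 (6.82%) with mixed clusters kept and 209 (6.46%) without the block, and lower genes 627 (3.55%) with no filter. Against other classes 1878 lower genes (18.1%) became 1200 (11.3%) without MI-DAPA. The stricter filter gave no arterial-like or smooth muscle-like cluster. No paired analysis was possible because each group has 1 library. Fewer than 20 UMIs over the MI-NS and Sham-NS libraries were found for Prox1 in capillary-like nuclei, 6 members in arterial-like and 4 in lymphatic-like nuclei.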
